A study of Mus musculus with 16 samples.

Results

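Slc10a6, Inmt, Galnt15, Serpina3n, Fmo1, Apod, 4833403I15Rik and Serpina1c are 8 mouse genes for enzymes, a transporter and secreted proteins, chosen by their normalized counts, out of the 20056 gene symbols of an RNA-seq table, for large increases in miR-9-1-deficient over wild-type libraries. All 8 symbols were present in the table. The samples were mesenchymal stem cells (MSCs) and osteoblasts (OBs), the bone-forming cells, sorted from 4 wild-type mice and from 4 mice made miR-9-1-deficient by CRISPR/Cas9 editing. Poly(A) RNA was sequenced in 16 libraries, 4 in each of 4 groups, and the question of the study was the part of miR-9-1 in the bone marrow surroundings that support lymphocyte formation. Letters stand for the mice: wild-type animals are A, B, C and D, and deficient ones E, F, G and H. By the animal numbers each gave 1 MSC and 1 OB library. The labels give no sort gate, age, sex or strain, and they do not state whether the edited mice descend from more than 1 founder. Since the increase in deficient libraries chose the genes, their genotype values are a description and carry no test.

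The genes act at different points in the handling of small molecules and proteins. Inmt encodes indolethylamine N-methyltransferase, which puts methyl groups on tryptamine and related amines, and Fmo1 encodes a flavin-containing monooxygenase of the endoplasmic reticulum that oxidizes foreign compounds at nitrogen and sulfur. Galnt15 belongs to the enzymes that begin mucin-type O-glycosylation by attaching N-acetylgalactosamine to proteins in the Golgi, and 4833403I15Rik is listed by RefSeq as a synonym of Lvrn, the cell-surface aminopeptidase laeverin. Slc10a6 encodes a sodium-dependent carrier for sulfated steroids. Serpina3n and Serpina1c encode secreted inhibitors of serine proteases, the latter being 1 of the mouse copies of alpha-1-antitrypsin, and Apod encodes apolipoprotein D, a secreted lipocalin that binds small lipophilic molecules.

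The edited locus, Mir9-1, is 1 of 3 mouse loci that RefSeq gives for the same mature microRNAs. Their sequences are shown with the seed, bases 2 to 8, in capitals, because a seed match in a 3′ UTR is the usual mark of a direct microRNA target.
mmu-miR-9-5p: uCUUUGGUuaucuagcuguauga
mmu-miR-9-3p: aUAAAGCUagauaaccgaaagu
In the longest annotated 3′ UTR of the 7 genes that could be searched, the miR-9-5p seed match ACCAAAG occurred in 0, against 13.05% of 16779 genes. The miR-9-3p seed match AGCTTTA occurred in 1, against 11.7% of those genes. That match was in Fmo1, at base 189 of the UTR, and is in capitals within its flanks.
Fmo1 UTR stretch: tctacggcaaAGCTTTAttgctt
These UTRs ran from 86 bases in Serpina1c to 3905 in Galnt15, with a median of 1041 over all genes, and a match is a description of letters, not of binding.

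RefSeq promoters, from 250 bases before to 50 after the start site on GRCm38.p6, were matched for 6 of the 8 genes. They were searched for ACANNNTGT, the core letters bound by the glucocorticoid receptor, which read the same on both strands. The letters occurred in 3 of the 6, Slc10a6, Galnt15 and Serpina3n, and in 6.85% of 32851 promoters of this length. These promoters are shown, 5′ to 3′ on the strand of the gene, with the match in capitals. They are shown because the glucocorticoid-induced genes described further on gave the most passing genes of any list between genotypes in MSCs, 7 of 22. The lists differ in size: B-lineage markers gave 3 of 9, a like share, and 1.06% of all genes tested passed. In OBs the glucocorticoid-induced genes gave 0 of 21. The letters and the lists were chosen with earlier results of these data known, so the match count is a description. Binding of the receptor was not tested. The Slc10a6 window lies at chr5:103629354-103629653 on the minus strand, and its match, ACACGATGT, starts 161 bases before the start site. The Galnt15 window lies at chr14:32028853-32029152 on the plus strand, and its match, ACAGCTTGT, starts 13 bases after the start. The Serpina3n window lies at chr12:104406458-104406757 on the plus strand, and its match, again ACAGCTTGT, starts 76 bases before the start.
Slc10a6 promoter: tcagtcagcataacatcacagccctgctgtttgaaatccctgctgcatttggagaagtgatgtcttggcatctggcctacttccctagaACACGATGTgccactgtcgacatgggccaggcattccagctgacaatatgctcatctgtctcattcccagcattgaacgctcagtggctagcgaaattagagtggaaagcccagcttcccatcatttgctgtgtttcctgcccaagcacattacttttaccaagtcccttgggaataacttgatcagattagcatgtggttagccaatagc
Galnt15 promoter: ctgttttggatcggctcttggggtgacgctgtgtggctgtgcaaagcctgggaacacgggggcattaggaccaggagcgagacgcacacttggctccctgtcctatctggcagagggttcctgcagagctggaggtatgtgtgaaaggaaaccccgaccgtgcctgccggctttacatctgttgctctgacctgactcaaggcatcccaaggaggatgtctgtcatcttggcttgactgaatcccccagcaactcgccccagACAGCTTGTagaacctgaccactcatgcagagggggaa
Serpina3n promoter: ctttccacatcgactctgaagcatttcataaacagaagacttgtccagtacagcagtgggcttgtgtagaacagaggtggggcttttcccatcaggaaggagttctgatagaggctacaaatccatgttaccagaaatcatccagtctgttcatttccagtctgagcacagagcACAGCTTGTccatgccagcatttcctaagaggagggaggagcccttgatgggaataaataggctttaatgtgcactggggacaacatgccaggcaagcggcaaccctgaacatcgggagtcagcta
The promoters of Inmt, Apod and Serpina1c held no match. The STAT letters TTCNNNGAA and the FoxO letters GTAAACA, searched on both strands, were in 0 of the 6, against 8.30% and 3.65% of all promoters, which says only that these letters are absent from the window. On GRCm38, GENCODE places Inmt at chr6:55170626-55175043, Fmo1 at chr1:162829561-162866610, Apod at chr16:31296192-31314808 and Serpina1c at chr12:103894926-103904887, each as a protein-coding gene on the minus strand.

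Some properties of the libraries bear on the values. Depth was 10148197 to 14246986 reads per MSC library and 15543693 to 18962771 per OB library. A count of 0 is compatible, at 95% confidence and for counting error only, with 3 reads, equal to 3.52 to 4.51 normalized counts in an MSC library and 1.95 to 2.36 in an OB library. MSC libraries A, E and F held much Ddx3y, a Y-linked gene, and little Xist, the X-inactivation transcript, and the other 5 the reverse, but every OB library held both, with 3719.5 to 8053 normalized counts of Xist and 649 to 1939 of Ddx3y. For mice B, C, D, G and H, Ddx3y was 29.8 to 78.1 in the MSC library and 649 to 817 in the OB library of the same number. What an OB library with both holds was not tested. Whether each OB library holds cells of 1 mouse alone, and so whether OB libraries are independent, cannot be told from the labels. The osteoblast label was not matched by osteoblast markers: their summed level was 229899 to 448064 in wild-type OB and 1428509 to 1877639 in wild-type MSC libraries, while 10 of 10 blood progenitor markers and 10 of 10 erythroid markers were higher in OB libraries (limma, adjusted p under 0.05), as were 35.9% of the 15556 genes tested. Reads of Mir9-1 numbered 0 in every MSC library, 0 to 16 in wild-type OB and 0 to 3 in deficient OB libraries, too few to check the genotype.

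The mean of the deficient libraries was higher for all 8 genes in both sorts. In MSCs every deficient library lay above every wild-type library for 6 of the 8, and 6.3% of the 14964 genes tested showed that order. In OB libraries it held for all 8, of which 7 were among the 14229 genes tested, where 2.47% showed that order. Inmt was not tested there, and its order rested on 1 read in G against 0, under the floor of 3 reads. The median difference over the 8 genes was 3.04 in MSCs and 3.61 in OBs on the log2(normalized count + 1) scale, on which changes of low genes come out too small, and over all genes tested it was -0.03 and -0.02. Since the rule used this contrast, nothing is read from these shares. The genes that passed the filter, 10 normalized counts or more in 4 of 8 libraries, were 7 in MSCs (all but Serpina1c) and 7 in OBs (all but Inmt). All genes tested were ordered by difference, the contrast of the rule, so the places are a description. The members furthest inside were 4833403I15Rik at place 3 in MSCs and Serpina1c at place 2 in OBs. Those nearest the edge were Fmo1 at place 298 and Serpina3n at place 17. Serpina1c passed the filter in OBs through deficient libraries alone, and its difference fell from 4.59 to 2.94 with a pseudocount of 5. In these bulk libraries more cells of a type and more RNA per cell cannot be told apart.

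**Figure D1:**
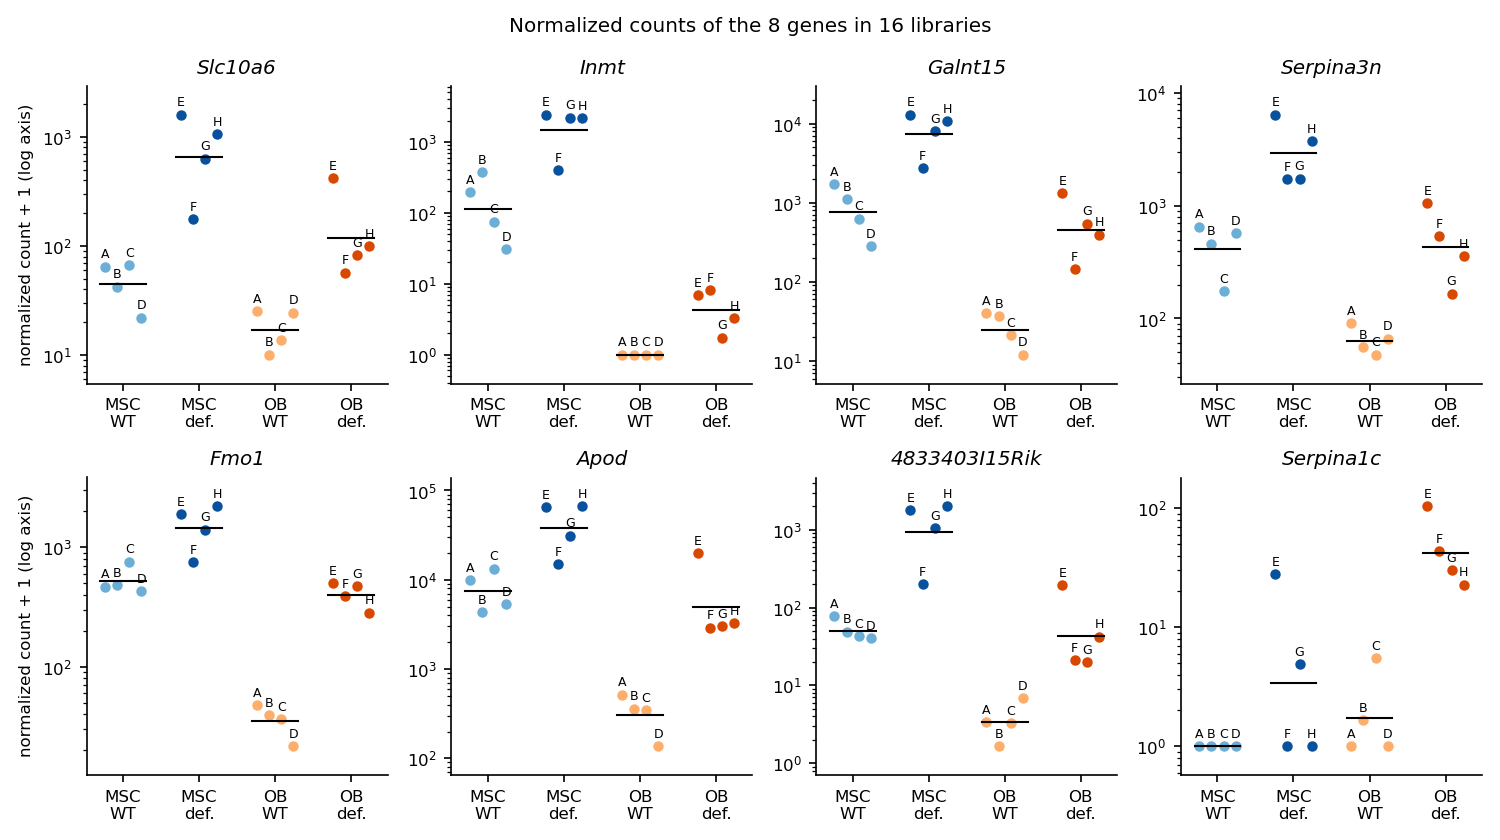
Normalized count plus 1 on a log axis for each of the 8 genes in 16 libraries, by group (WT, wild-type; def., miR-9-1-deficient), with mouse letters beside the points and a bar at the mean of the logs. Deficient points lie above all wild-type points of the same sort except for Fmo1 and Serpina1c in MSCs, and F is lowest or tied lowest among deficient MSC libraries in every panel.

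Among the enzymes, Inmt was high in MSC libraries and near the detection limit in OB libraries. Wild-type MSC libraries A to D held 194, 375, 74.3 and 30.1 normalized counts of Inmt, and deficient libraries E to H held 2411, 398, 2193 and 2148. The means were 169 ± 154 and 1788 ± 933 (SD, n = 4), a ratio of 10.6 and a difference of 3.67 on the log2 scale. Deficient library F, at 398, stood just above wild-type library B, at 375, so the groups were separated by 1.06-fold there and widely elsewhere. In OB libraries Inmt had 0 reads in all 4 wild-type libraries, and 8, 11, 1 and 3 reads in E to H. The deficient mean, 4.01 normalized counts, was 1.83 times the floor of 3 reads per wild-type library. That figure makes no allowance for counting error in E to H. Leaving F out raised the mean of deficient MSC libraries to 2251.

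Galnt15 was abundant in MSC libraries and low in wild-type OB libraries. It measured 1723, 1106, 626 and 279.5 normalized counts in wild-type MSC libraries A to D, and 12911, 2708, 7985 and 10738 in E to H. The lowest deficient library, F, exceeded the highest wild-type library, A, by 1.57-fold, and the means of 934 ± 626 and 8586 ± 4407 had a ratio of 9.19 (3.28 on the log2 scale). In OB libraries the values were 39.3, 35.8, 20.3 and 11.0 in the wild type and 1332, 143, 545 and 394 in deficient mice. These groups were 3.63-fold apart at their nearest libraries, with means of 26.6 ± 13.3 and 603 ± 513, a ratio of 22.7 (4.18 on the log2 scale). Library E set the upper end: the other 3 deficient OB libraries averaged 360.4.

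Fmo1 showed the smallest difference of the 8 in MSCs, where it was also the only abundant one whose groups overlapped. Its values were 466, 482, 756 and 428 in wild-type MSC libraries A to D and 1878, 745, 1405 and 2199 in E to H. Deficient library F lay below wild-type library C, and the other 3 deficient libraries lay above all wild-type ones, with group means of 533 ± 150 and 1557 ± 632 (ratio 2.92, 1.47 on the log2 scale). In OB libraries Fmo1 measured 46.4, 38.4, 35.4 and 20.6 against 499, 386, 469 and 283. Here the lowest deficient library exceeded the highest wild-type one by 6.10-fold, the widest such gap of the 8 genes in either sort (no gap can be given for Inmt in OBs and Serpina1c in MSCs, whose wild-type libraries were at 0), and the means were 35.2 ± 10.8 and 409 ± 96.9 (ratio 11.6, 3.53 on the log2 scale). The deficient OB libraries also lay close together, within the range of 283 to 499.

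4833403I15Rik, the aminopeptidase gene, was low in all wild-type libraries. Wild-type MSC libraries A to D held 76.3, 47.9, 41.9 and 39.1 normalized counts of it, and E to H held 1790.1, 197, 1040.5 and 2006. Library F was again the lowest deficient library, 2.58-fold above the highest wild-type one, and the means were 51.3 ± 17.1 and 1258.5 ± 819.7, a ratio of 24.5 (4.20 on the log2 scale). In OB libraries the wild-type values were 2.36, 0.650, 2.26 and 5.87, and the deficient values 194, 20.2, 19.0 and 41.3. The groups did not overlap, and the means of 2.79 ± 2.20 and 68.6 ± 84.2 had a ratio of 24.6 (3.70 on the log2 scale). Without E the deficient mean fell to 26.8.

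The transporter Slc10a6 followed the same order. In MSC libraries it measured 63.8, 41.4, 66.2 and 21.0 in A to D and 1593, 175, 631 and 1061 in E to H. All deficient libraries lay above the wild-type ones, by 2.65-fold at the nearest, and the means were 48.1 ± 21.2 and 865 ± 605 (ratio 17.98, 3.87 on the log2 scale). In OB libraries the wild-type values were 24.4, 9.10, 12.8 and 23.5, and the deficient values 418, 56.0, 81.1 and 98.5. Library E stood alone at the top: the deficient mean was 163 ± 171 with it and 78.5 without it, against 17.4 ± 7.65 in the wild type (ratio 9.37, 2.78 on the log2 scale, with all 4).

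Of the secreted proteins, Apod took the most reads. Wild-type MSC libraries A to D held 9906, 4307, 13360.2 and 5362 normalized counts of Apod, and deficient libraries held 65492, 14909, 31209.9 and 66546. It made up 0.0254 to 0.0803% of wild-type and 0.0873 to 0.449% of deficient MSC reads, and its means of 8234 ± 4193 and 44539 ± 25684 had a ratio of 5.41 (2.34 on the log2 scale). Library F was 1.12-fold above library C, the nearest pair. In OB libraries Apod measured 516, 358, 344 and 136 in the wild type and 19998.5, 2898, 3045 and 3266 in deficient mice. The last 3 lay close together and E was 6.52-fold above their mean, so the deficient mean was 7302 ± 8466 with E and 3069 without it, against 339 ± 156 in the wild type (ratio 21.6, 4.00 on the log2 scale, with all 4).

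Serpina3n was 7.33-fold higher in deficient MSC libraries by the means. Its values were 651, 458, 173 and 571 in A to D and 6388, 1727, 1737 and 3730.5 in E to H, with means of 463 ± 209 and 3396 ± 2206 (2.81 on the log2 scale). The lowest deficient library exceeded the highest wild-type one by 2.65-fold. In OB libraries it measured 90.3, 54.6, 46.7 and 65.3 against 1051, 535, 165 and 356. These groups were 1.83-fold apart at the nearest, and the means of 64.3 ± 19.0 and 527 ± 381 had a ratio of 8.20 (2.76 on the log2 scale).

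Serpina1c was the only 1 of the 8 with higher values in OB than in MSC libraries. It had 0 reads in the 4 wild-type MSC libraries and in deficient libraries F and H, with 23 reads in E and 3 in G. The deficient mean, 7.73 normalized counts, was 1.86 times the floor of 3 reads per wild-type library and rested on E. That figure makes no allowance for counting error in the deficient libraries. In OB libraries the wild-type values were 0, 0.650, 4.52 and 0 normalized counts (1 read in B and 6 in C), and the deficient values were 102.85, 42.3, 29.2 and 21.8. The deficient libraries held 140, 65, 40 and 29 reads, and the means were 1.29 ± 2.17 and 49.1 ± 36.9 (ratio 38.0, 4.59 on the log2 scale).

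The differences were also taken within groups of animal numbers. By their leading digits the animal numbers fall into 3 series, the first with mice A, B, E and F, the second with C and G and the third with D and H, and the labels do not say what a series is. Within each series and sort the deficient value was above the wild-type value for every gene, with 1 exception, Serpina1c in MSCs of D and H, which was at 0 in both. In MSCs the differences ran from 0.89 (Fmo1, C and G) to 6.11 (Inmt, D and H) on the log2 scale, leaving Serpina1c aside. In OBs they ran from 0.79 (Inmt, C and G) to 5.71 (Serpina1c, first series).

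**Figure D2:**
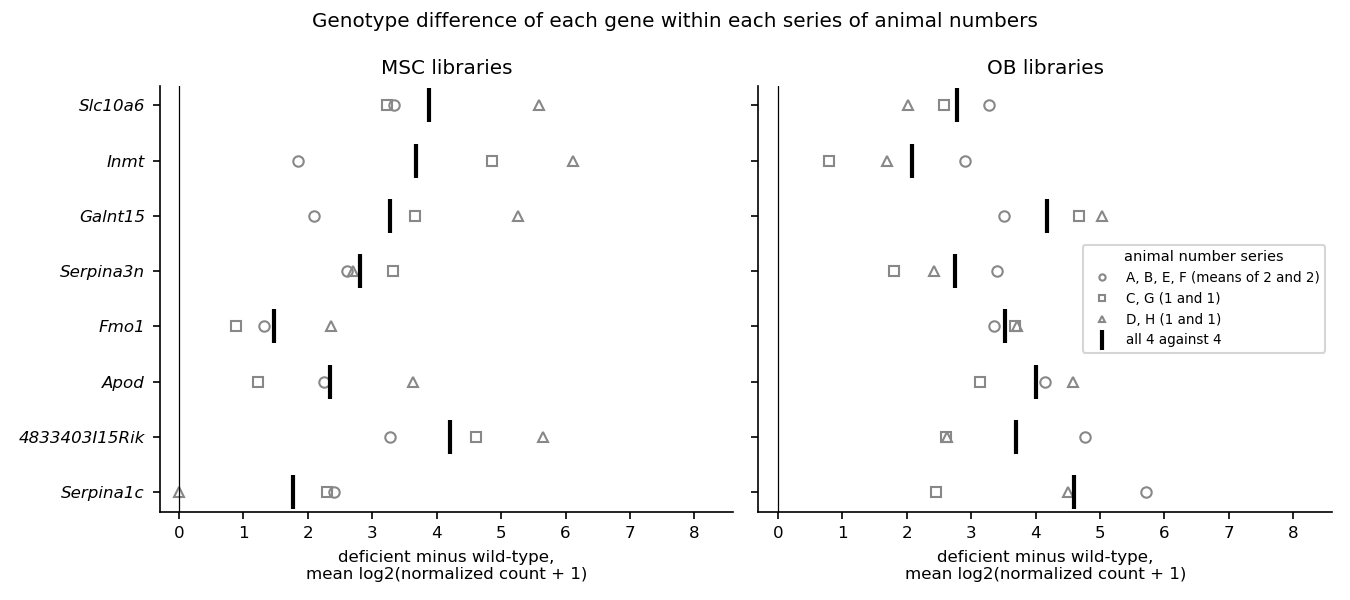
Deficient minus wild-type mean of log2(normalized count + 1) for each gene, in MSC (left) and OB libraries (right), within 3 series of animal numbers (open symbols) and over all 4 against 4 mice (bars). Every symbol lies to the right of 0 except Serpina1c of D and H in MSCs, at 0.

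Ordered by group mean, deficient MSC libraries were at the top for 7 of the genes and wild-type OB libraries at the bottom. Between these ends, deficient OB libraries and wild-type MSC libraries overlapped for 6 of the 7. Mean levels in deficient OBs and wild-type MSCs were 163 and 48.1 for Slc10a6, 603 and 934 for Galnt15, 527 and 463 for Serpina3n, 409 and 533 for Fmo1, 7302 and 8234 for Apod, and 68.6 and 51.3 for 4833403I15Rik. Inmt was the exception, at 4.01 and 169 with no overlap. Other neighbours that overlapped were deficient MSCs and deficient OBs for Slc10a6, deficient and wild-type MSCs for Fmo1, and wild-type MSCs and wild-type OBs for Slc10a6. Serpina1c had the order deficient OBs, deficient MSCs, wild-type OBs and wild-type MSCs, with each neighbouring pair overlapping.

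The difference between sorts, averaged over genotype, was not the contrast that chose the genes. It was tested with limma over all 16 libraries, without the pairing by animal number. It holds the deficient values that chose the genes. Spread was unequal, as for 4833403I15Rik in MSCs (log2 SD 1.54 in deficient and 0.43 in wild-type libraries). The choice may therefore bear on these p-values. Of the 15556 genes tested, 73.8% passed at an adjusted p under 0.05 and 37.8% passed as lower in OB libraries, so a passing gene is the usual case in this comparison. Galnt15 had an OB minus MSC difference of -4.49 ± 0.47 (SE) on the log2 scale (limma adjusted p = 2.06e-07) and 4833403I15Rik one of -4.17 ± 0.53 (limma adjusted p = 2.13e-06). The differences were -3.77 ± 0.44 for Apod, -2.88 ± 0.22 for Fmo1, -2.74 ± 0.38 for Serpina3n and -1.93 ± 0.47 for Slc10a6, with limma adjusted p-values of 7.38e-07, 5.99e-09, 5.06e-06 and 0.00141. Inmt passed the filter on low values through MSC libraries alone and Serpina1c through the deficient OB libraries and deficient MSC library E, so a difference was built into their selection and their sort differences, -7.64 and 2.21, are a description with no test. Connective tissue fibroblast markers were lower in OB libraries for 15 of 16 genes, with summed levels of 98092 to 187304 in wild-type MSC and 6870 to 9140 in wild-type OB libraries. Other lists were lower too: 9 of 13 marrow stroma markers (2 were higher), 9 of 15 osteoblast and 5 of 8 adipocyte markers (0 higher in either). Blood progenitor and erythroid markers were higher, 10 of 10 in each. The part of these cells in the result was not tested.

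Taken within each genotype, the sort difference kept its sign. For Apod it was -4.60 in wild-type and -2.94 in deficient libraries on the log2 scale, and for Fmo1 -3.90 and -1.85. Inmt gave -6.84 and -8.44, Galnt15 -4.94 and -4.04, 4833403I15Rik -3.92 and -4.42, Serpina3n -2.71 and -2.77, and Slc10a6 -1.39 and -2.48. Serpina1c gave 3.61 in deficient libraries and did not pass the filter in wild-type ones. Whether a sort difference differed between genotypes was not tested.

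The spread of the genes among mice of a group was described as well. After the group mean was taken from each log2 value, the deviations of the 7 genes that passed the filter correlated positively in 21 of 21 pairs over the 8 MSC libraries, with a median Pearson r of 0.70 (0.16 to 0.92). In the 8 OB libraries 20 of 21 pairs were positive, with a median r of 0.55 (-0.12 to 0.94). Of the genes paired in OBs, 4833403I15Rik and Serpina1c passed the filter through deficient libraries alone. Their wild-type OB values rest on 0 to 8 reads per library. The share of positive pairs among other genes was not computed, so these counts are a description. The points of a pair share their library, its depth and its cell composition. Mouse F was lowest, or tied at 0, among deficient MSC libraries for 8 of 8 genes, and E was highest for 5 and H for 3. The mean of the other 3 deficient MSC libraries was 8.18 times F for 4833403I15Rik, 6.25 times for Slc10a6, 5.65 times for Inmt and 2.29 times for Serpina3n. Among deficient OB libraries E was highest for 7 of 8 genes, at 7.22 times the mean of the other 3 for 4833403I15Rik, 5.32 times for Slc10a6 and 1.32 times for Fmo1. F was lowest there for 3 genes and highest for Inmt. In the wild type, D was lowest for 5 of the 7 genes detected in MSC libraries, and A was highest for 5 of the 7 detected in OB libraries.

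**Figure D3:**
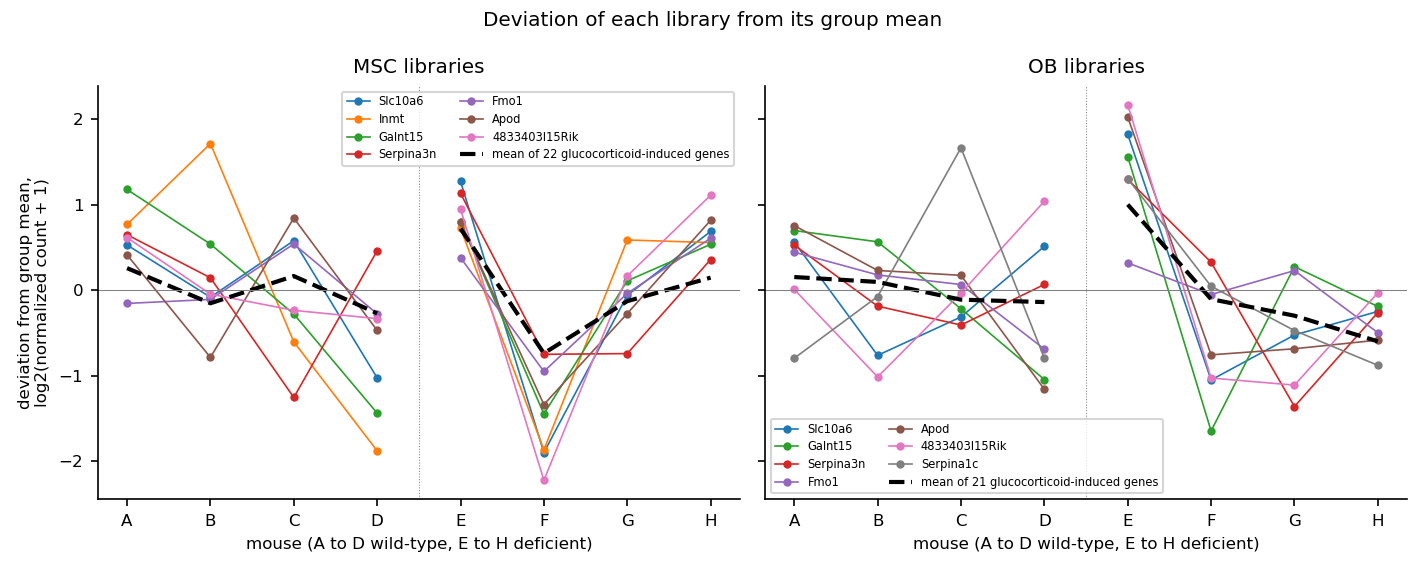
Deviation of each library's log2(normalized count + 1) from its group mean, for the 7 genes passing the filter in MSC (left) and OB libraries (right), by mouse, with the mean of the tested glucocorticoid-induced genes (22 in MSCs, 21 in OBs) as a dashed line. Among the deficient mice, F is lowest for all 7 genes in MSCs and E is highest for all 7 in OBs.

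Glucocorticoid-induced genes, a list of 22 such as Fkbp5, were compared with the 7 genes that passed the filter in each sort (all but Serpina1c in MSCs and all but Inmt in OBs). The mean deviation of the list and that of these 7 correlated with r = 0.90 over the 8 MSC libraries and r = 0.90 over the 8 OB libraries, as a description over libraries that share depth and composition. The same correlation was -0.82 with osteoblast markers in MSCs, and 0.84 with skeletal muscle and 0.72 with adipocyte markers in OBs, and the part of these cells was not tested. Glucocorticoids act through a nuclear receptor, encoded by Nr3c1, that binds DNA and raises transcription of such genes. In deficient MSC libraries 7 of 22 list members rose and 0 fell (limma, adjusted p under 0.05), where 1.06% of all genes tested passed. The list's median difference was 1.39 on the log2 scale, against -0.03 over all genes, with 21 of 22 positive. In OB libraries 0 of 21 passed with limma (13 at an unadjusted p under 0.05, 0 with edgeR and 4 with DESeq2), where 0.0281% of all genes did, the median was 0.75, against -0.02 over all genes, and 19 of 21 were positive.

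Klf15, a zinc-finger transcription factor, changed most in the list. It measured 84.6, 59.6, 112 and 48.1 in wild-type MSC libraries A to D and 2929, 197, 983 and 1194 in E to H, a rise of 3.63 ± 0.64 on the log2 scale (limma adjusted p = 0.0363). E was the highest and F the lowest of the deficient libraries. Zbtb16, another zinc-finger factor, rose by 3.01 ± 0.54 from a mean of 237 ± 105 to 2324 ± 1650.5 (limma adjusted p = 0.0373). Fkbp5, a co-chaperone that dampens the glucocorticoid receptor, rose by 2.82 ± 0.42 from 455 ± 108 to 3900 ± 3005 (limma adjusted p = 0.0253). The metallothionein Mt2 rose by 1.98 ± 0.34 from 4558 ± 2090 to 17503 ± 7348 (limma adjusted p = 0.0313). With any 1 library other than F left out, 0 to 2 of the 7 passed, and without F all 7 did, with limma adjusted p-values of 0.000499 to 0.00510. With the series of animal numbers as a term, with skeletal muscle level as a covariate, or without G and H, 0 of the 7 passed (lowest limma adjusted p-values of 0.0637, 0.0881 and 0.256). All 7 were higher in deficient MSCs in all 17 alternative fits. Whether the list's genotype difference differed between sorts was not tested.

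Of the genes for the receptor and for steroid activation, 1 of 11 rose in deficient MSCs with limma, where 1.06% of all genes tested passed. It was the efflux pump gene Abcb1b, by 1.34 ± 0.25 (limma adjusted p = 0.0373), which passed in 7 of 17 alternative fits. In the same 11 genes 3 had an unadjusted limma p under 0.05, edgeR called 1 and DESeq2 2. Nr3c1 itself measured 3405 ± 65.3 in wild-type and 2929 ± 677 in deficient MSC libraries (limma adjusted p = 0.383), and 1469.9 ± 77.4 and 1469.6 ± 164 in OB libraries. Hsd11b1, whose enzyme reactivates glucocorticoids inside cells, measured 295 ± 127 and 412 ± 137 in MSCs (limma adjusted p = 0.392). In OB libraries 0 of the 11 passed with limma, edgeR or DESeq2, and 1 had an unadjusted limma p under 0.05. Over all genes tested there, 0.0281% passed with limma.

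**Figure D4:**
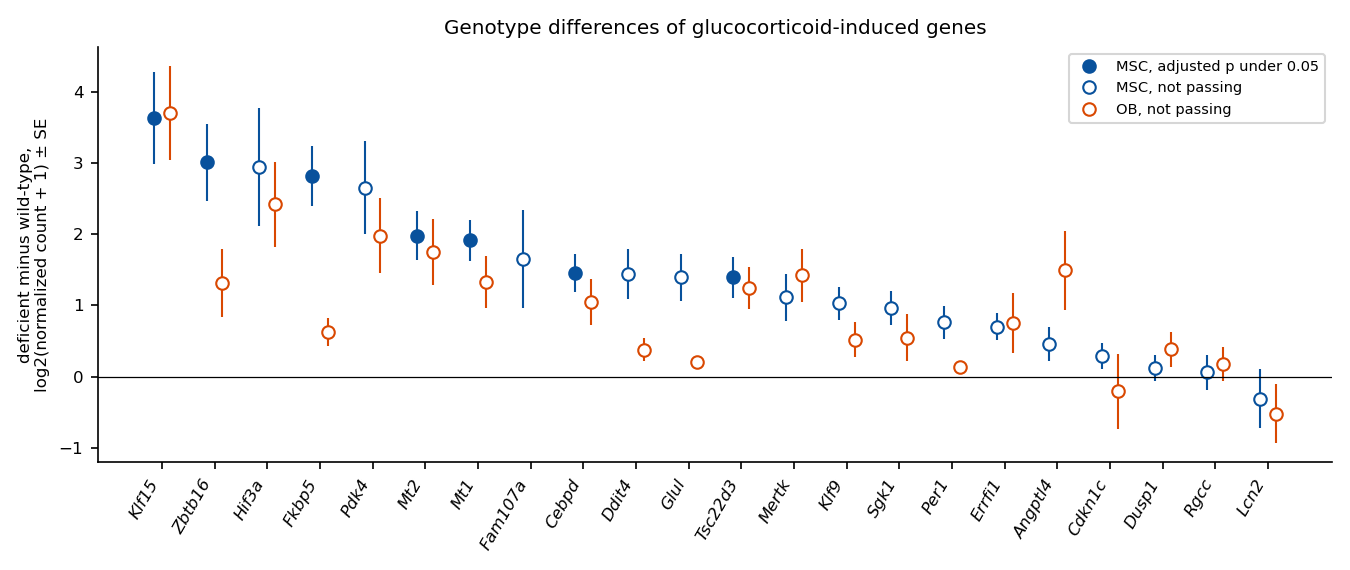
Deficient minus wild-type difference in log2(normalized count + 1), with its SE, for glucocorticoid-induced genes in MSC (blue) and OB libraries (orange). The 7 filled points passed in MSCs, 21 of 22 MSC points lie above 0, and no OB point passed.

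Relatives of the 8 genes were compared between genotypes. Limma called 1.06% of all genes tested in MSCs and 0.0281% in OBs, so 0 calls in a short list is the usual case. In the SLC10 carriers limma called 0 of 4 tested relatives in MSCs (2 at an unadjusted p under 0.05, edgeR 0, DESeq2 1) and 0 of 3 in OBs (0 unadjusted, 0 with either other tool). Slc10a1, a bile acid carrier, measured 62.6 ± 16.9 and 117 ± 21.7 in wild-type and deficient MSCs (limma adjusted p = 0.130). Among the GALNT enzymes limma called 0 of 13 in MSCs (5 unadjusted, edgeR 0, DESeq2 2) and 0 of 12 in OBs (1 unadjusted, 0 with either other tool). In MSCs 12 of the 13 had a negative difference, the exception being Galnt16, at 220 ± 69.3 and 622 ± 331 (limma adjusted p = 0.0811). O-glycan extension gave 0 calls of 12 and 11 genes in MSCs and OBs by all 3 tools (2 and 1 at an unadjusted limma p under 0.05). Steroid sulfate handling gave 0 of 15 and 0 of 14 with limma and edgeR (6 and 3 unadjusted, 3 and 1 with DESeq2). Small-molecule methyltransferases gave 0 of 10 in each sort with limma and edgeR (2 and 0 unadjusted, 1 and 0 with DESeq2), and lipocalins 0 of 4 and 0 of 5 by all 3 tools (0 and 2 unadjusted).

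In the FMO family limma called 0 of 3 in MSCs (2 unadjusted, edgeR 1, DESeq2 2) and 0 of 2 in OBs (1 unadjusted, 0 with either other tool). Fmo2 measured 348, 357, 431 and 243 in wild-type MSC libraries A to D and 6952, 478, 2243 and 5041 in E to H, a difference of 2.87 ± 0.65 on the log2 scale that did not pass (limma adjusted p = 0.0608). The groups did not overlap, and F was the lowest deficient library here too. In OB libraries Fmo2 measured 29.9, 35.8, 28.6 and 16.2 against 1805, 227, 168 and 124, also without overlap (3.47 ± 0.73, limma adjusted p = 0.182). Fmo4 measured 5.27 ± 3.64 and 50.1 ± 27.9 in MSCs (limma adjusted p = 0.0959) and Fmo5 218 ± 98.6 and 292 ± 124 (limma adjusted p = 0.469). Of other enzymes that handle foreign compounds, 2 of 24 rose in deficient MSCs with limma, where 1.06% of all genes tested passed. They were the alcohol dehydrogenase Adh1, by 2.42 ± 0.45 (limma adjusted p = 0.0373), and the glutathione transferase Gstm1, by 0.97 ± 0.15 (limma adjusted p = 0.0253). In the same 24 genes 10 had an unadjusted limma p under 0.05, edgeR called 3 and DESeq2 7. In OBs limma called 0 of 20 (5 unadjusted, edgeR 0, DESeq2 2). In MSCs Adh1 and Gstm1 passed in 8 and 7 of 17 alternative fits.

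Serpina1c shares much of its sequence with its neighbours, so its reads are uncertain. Of the 50-base words of its longest transcript, 71.1% also occur in another of Serpina1a, Serpina1b, Serpina1d and Serpina1e, the highest share of the 5, and how the authors counted such reads is not given in the sources used here. Summed over the 5 genes, which does not depend on how counted reads were divided among them, the level was 209 ± 113 in wild-type and 1296 ± 899 in deficient OB libraries, with ranges of 88.8 to 317 and 681 to 2620 that did not overlap. In MSC libraries the sums were 410.5 ± 177 and 615 ± 268, and their ranges overlapped. In OBs Serpina1a measured 31.3 ± 22.3 and 219 ± 118 (limma adjusted p = 0.290), Serpina1b 62.8 ± 26.8 and 368 ± 352 (limma adjusted p = 0.310) and Serpina1d 108 ± 65.6 and 637 ± 387 (limma adjusted p = 0.136). Within serpin clade A limma called 0 of 8 relatives in MSCs and 0 of 6 in OBs (2 and 3 unadjusted, 0 with edgeR and 2 with DESeq2 in each). Serpina3m, from the cluster that holds Serpina3n, measured 4.60 ± 6.54 and 59.3 ± 51.1 in MSCs (limma adjusted p = 0.0811), while the more abundant Serpina3g measured 925 ± 188 and 694.5 ± 131 (limma adjusted p = 0.225).

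**Figure D5:**
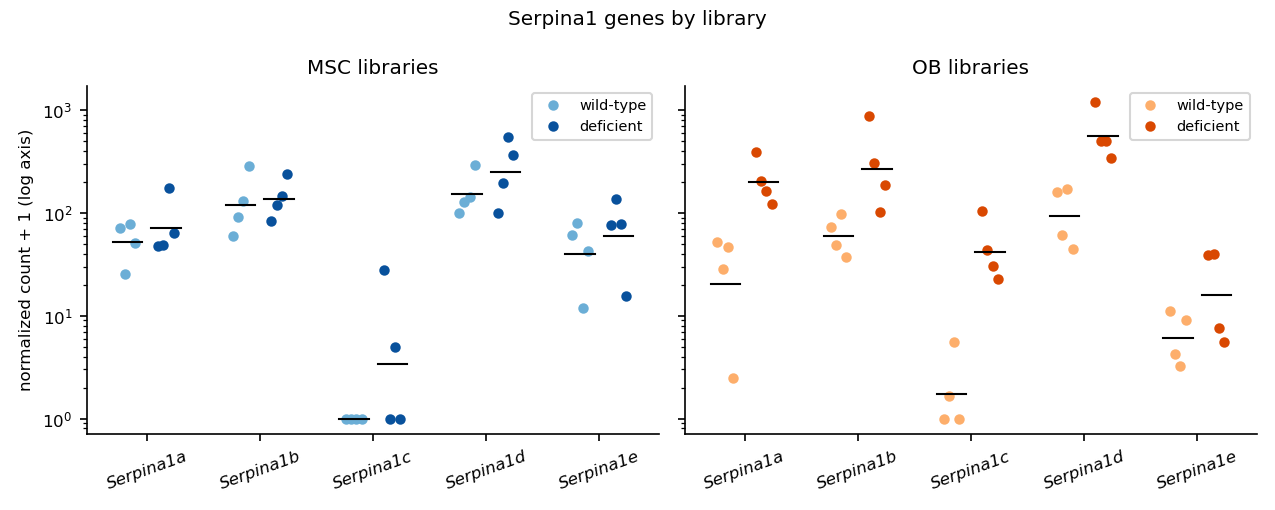
Normalized count plus 1 on a log axis for the 5 Serpina1 genes in wild-type and deficient libraries, MSC left and OB right, with 4 mice per group and a bar at the mean of the logs. In OB libraries the deficient bar is above the wild-type bar for all 5 genes, and Serpina1c has the lowest wild-type bar in both sorts.

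Serpina3n is also known as an acute-phase gene, induced by interleukin-6 through STAT3. Of the acute-phase and interleukin-6 response list 1 of 20 rose in deficient MSCs, Cebpd, a gene that the glucocorticoid list holds as well (1.46 ± 0.26, limma adjusted p = 0.0373), against 1.06% of all genes called. In the same 20 genes 12 had an unadjusted limma p under 0.05, edgeR called 1 and DESeq2 7. Their median difference was 0.42 on the log2 scale, against -0.03 over all genes, with 15 of 20 positive. The summed level of the whole list was 80071.6 to 97757.5 in wild-type and 111816 to 166206 in deficient MSCs. Of this list 0 of 20 passed in OBs with limma, edgeR or DESeq2 (5 at an unadjusted limma p under 0.05). Lcn2, a neutrophil and acute-phase lipocalin outside that list, measured 4727 ± 2967 in wild-type and 3361 ± 1179.9 in deficient MSCs (limma adjusted p = 0.685). It was the only gene of the glucocorticoid list with a negative difference there.

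Serpina1c, Serpina3n and Fmo1 are also expressed in liver, so hepatocyte markers were read in the same libraries. Of 12 such markers in the table, 5 were at 0 in every wild-type MSC library (Apob, Fga, Fgb, Cyp2c29 and Tat) and 4 in every deficient one (Apob, Ttr, Fgb and Cyp2c29), and the summed level was 43.2 to 102 in wild-type and 44.4 to 89.1 in deficient MSCs, and 19.8 to 48.1 and 18.04 to 63.9 in OBs. Markers of other cell types were read in the same way. Skeletal muscle markers summed to 346 to 703 in wild-type and 435 to 6460.0 in deficient MSCs, highest in G and H, with 0 of 11 passing with limma and edgeR (4 unadjusted, 2 with DESeq2). The median difference of the 8 genes in MSCs was 3.04 with all libraries and 2.98 without G and H. In deficient MSCs 4 of 15 osteoblast markers fell, with summed levels of 429448 to 1019587 against 1428509 to 1877639, and 3 of 9 B-lineage markers fell, with sums of 253 to 371 against 778 to 1350.3, where 0.561% of all genes were called lower. Bglap and Phospho1 passed in 10 of 17 alternative fits, Bglap2, Smpd3, Cd79b and Rag1 in 7 of 17 and Vpreb3 in 6 of 12. In MSCs 12 of the 15 osteoblast and 9 of the 9 B-lineage markers had an unadjusted limma p under 0.05. EdgeR called 4 and 3 of them, and DESeq2 8 and 7. Reads of the near-identical neighbours Bglap and Bglap2 are uncertain. The part of these cells in the values of the 8 genes was not tested.

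In OB libraries marrow stroma markers averaged 8.73 to 9.38 in the wild type and 8.63 to 10.50 in deficient mice on the log2 scale, highest in E and F. The median difference of the 8 genes in OBs was 3.61 with all libraries and 3.24 without E and F, and the part of stroma cells was not tested. Fat cell markers had a median difference of 0.98 with 7 of 7 positive. Of these, 0 passed by limma, edgeR or DESeq2 (1 at an unadjusted limma p under 0.05), and their part was not tested. Osteoblast markers had a median difference of -1.25 with 1 of 15 positive. They summed to 229899 to 448064 in wild-type and 38721 to 161221 in deficient OBs. Limma called 1 of the 15, Phospho1, as lower (10 unadjusted, edgeR 1, DESeq2 5), where 0.0281% of all genes tested passed. The part of osteoblasts was not tested.

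Over all 16 libraries, the genes whose profile was most like the mean profile of the 8, among 12573 candidates with a mean of at least 50, were Fmo2 (r = 0.98), Klf15 (0.96), Cyp2d22 (0.96), Zc3h6 (0.96), Cnr1 (0.95), Tsc22d3 (0.95), Vipr2 (0.95), Cdo1 (0.95), Penk (0.95) and Nox4 (0.95). The profile holds the increase by which the 8 genes were chosen, the 4 group means make up much of it, and the libraries share depth and composition. Cyp2d22, a cytochrome P450 gene, measured 333 ± 108, 1560.2 ± 841, 61.9 ± 18.4 and 271 ± 241 in wild-type MSCs, deficient MSCs, wild-type OBs and deficient OBs. It was the single most similar gene to both Galnt15 and 4833403I15Rik (r = 0.97 for each). The most similar gene was Klf15 for Slc10a6 (r = 0.97), Tlr4 for Inmt (0.98), Igf2bp2 for Serpina3n (0.94), Dpyd for Fmo1 (0.96) and Spock2 for Apod (0.97). For Serpina1c it reached r = 0.76, with 9930012K11Rik.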

How the data were processed

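RNA-seq libraries of sorted MSCs and OBs were analysed from 1 table of the whole series. Per the submitters' processing notes, DESeq2 1.24.0 and the mm10 build were used, and the deposited values are normalized counts (a signal per gene symbol). Not given in the sources used here are the aligner, counting program, annotation and filters. Each deposited signal value was a whole multiple of 1 step per library (100% of values within 0.01), so the authors' values are read counts divided by a size factor, and reads were recovered. All columns were used.

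The main tests were made with limma 3.58.1 in R 4.3.3 (trend, Benjamini-Hochberg) on log2(normalized count + 1), over genes with 10 or more in at least 4 libraries fitted, at an adjusted p under 0.05. In the genotype comparison the 8 genes were described and not tested. edgeR 4.0.16 and DESeq2 1.42.0 on recovered reads, a pseudocount of 5, other filters, quantile normalization, covariates and left-out libraries were alternatives. The code was tested on simulated data: of 8-fold changes 98% were recovered between sorts (15281 genes), 92% in MSCs (14645 genes) and 98% in OBs (14047 genes), and of 2-fold changes 80%, 37% and 64%. The simulation gave each gene 1 spread for both groups, kept libraries independent and left low genes unchanged. In the data, log2 SDs in deficient and wild-type OBs were 1.26 and 0.65 for Slc10a6, and 0.37 and 0.49 for Fmo1. The shares recovered are therefore not the power of the list tests. Klf15 in OBs differed by 3.71 on the log2 scale and did not pass (limma adjusted p = 0.112). No 2 libraries of a group agreed within sampling noise (chi-square per degree of freedom 10.3 to 128).

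The 8 genes, the 25 lists and the letters searched in promoters were chosen with earlier results of these data known. Named besides the 8 genes are up to 4 passing genes of a list per direction, or up to 2 others, family members, and the 10 genes most alike in profile. Hsd11b1 and, in MSCs, Nr3c1 were named outside this rule, after their values were seen. The same animal numbers occur in both sorts and were taken to pair libraries: the correlation of a mouse's MSC and OB deviations from their group means lay between 0.0505 and 0.332, and it was highest for the mouse's own number in 5 of 8.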

Additional observations from a re-analysis of the deposited data

Results flagged for a closer look

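In groups of 4 libraries, a value was marked by its gap to the nearest other library. The mark was set where this gap took up more of the group's range than Dixon's 95% critical value allows. For normally distributed values chance does so in about 1 in 20 groups. The values used were counts without a log, which can be skewed, so the rate here is not known. Of 54 groups examined, 12 were marked, and they share mice. In deficient OBs, library E was marked for Slc10a6 (418 normalized counts, the others at 56.0 to 98.5), Apod (19998.5, the others at 2898 to 3266) and 4833403I15Rik (194, the others at 19.0 to 41.3). It was marked too for Fmo2 (1805), Klf15 (788), Fkbp5 (2468) and Zbtb16 (1027). In deficient MSCs, E was marked for Serpina1c (27.0, the others at 0 to 3.92) and Mt2 (28461), and F for Inmt (398, the others at 2148 to 2411). In the wild type, C was marked for Fmo1 in MSCs (756, the others at 428 to 482) and for Serpina1c in OBs (4.52, the others at 0 to 0.650).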

How the results depend on the processing

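The number of genes passing between genotypes depended on the processing, and the values of the 8 genes kept the direction for which they were chosen in the alternatives run. In MSCs 159 genes passed (3405 at an unadjusted p under 0.05), 1196 with DESeq2, 8 with the series of animal numbers as a term, 1 with skeletal muscle level as a covariate, 0 without deficient libraries G and H (limma; 1942 unadjusted; this alternative and those without deficient OB libraries E and F were chosen after seeing the data), and 0 (without wild-type library B) to 2261 (without deficient library F) when 1 library was left out. In OBs 4 passed, 16 with quantile normalization, 194 with DESeq2, 9 with the series term, 243 with marrow stroma level as a covariate, 88 without E and F, and 3 to 108 (without H) with 1 library left out. The share of calls that were higher in deficient mice was 47.2% in MSCs, 59.2% with edgeR and 57.5% with DESeq2, and 75.0% in OBs, 56.3% with quantile normalization, 58.8% with DESeq2, 50% with a pseudocount of 5, 8.64% with the stroma covariate and 19.3% without E and F. The sort comparison gave 11474 genes, and with the mouse as a replicate block, which uses the pairing, 11513; the block changed no call of the 6 genes tested there. Quantile normalization moved the median of all genes between sorts from -0.02 to 0.13. The median difference of the 8 genes ran from 2.72 to 3.41 in MSCs and from 2.81 to 3.79 in OBs; with a pseudocount of 5, Inmt and Serpina1c in OBs moved to 0.78 and 2.94. Nr3c1 in OBs changed from -0.01 to 0.0269 with edgeR and 0.0208 with DESeq2, and ran from -0.0434 (without G) to 0.0783 (without H) with 1 library left out, above 0 also without A (0.0224) and D (0.00155). The cause of these changes was not tested. At this depth Inmt in OBs and Serpina1c in MSCs rest on 23 and 26 reads.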
